A study of Mus musculus with 8 samples.

Results

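The genes described here build the MHC class I antigen presentation pathway. They were taken as a named list of 9 genes (B2m, H2-K1, H2-D1, Tap1, Tap2, Tapbp, Psmb8, Psmb9 and Nlrc5) out of 37131 annotated mouse genes, of which 22284 are protein-coding. The data were peak lists from ChIP-seq, a method that sequences DNA fragments bound by a chosen protein or histone mark. The cells were D1, a long-term dendritic cell (DC) line from the spleen of C57BL/6 mice. Trimethylation of histone 3 lysine 4 (H3K4me3), a mark of active gene starts, was mapped in 3 conditions, which were non-treated (NT) cells, cells given 10 µg/ml curdlan for 2 h, and cells given the same curdlan together with FK506. The transcription factor NFATc2 was mapped in D1 cells after 30 min of 10 µg/ml curdlan. Those cells stably carried NFATc2 with a V5 tag from a lentiviral vector and had been sorted for low GFP, so this list describes a tagged, added protein. Curdlan is a β-glucan that engages dectin-1, a receptor for fungal cell walls, and FK506 inhibits calcineurin, the phosphatase that lets NFAT enter the nucleus. A single ChIP library, with its own input, stood for each condition, so no value below has a replicate check and no p-value between conditions was computed.

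MHC class I molecules show peptides from inside the cell to CD8+ T cells. The immunoproteasome cuts proteins into peptides, the TAP transporter carries these into the endoplasmic reticulum, tapasin holds empty class I molecules at TAP, and a heavy chain with β2-microglobulin takes the peptide to the surface. DCs also use this route to present material they have taken up, and Nlrc5 is known as a transactivator of many of these genes.

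The NFATc2 ChIP library held 14377535 tags and 9438 peaks. The H3K4me3 libraries held 16662316 tags (NT), 21289349 (curdlan) and 19468498 (curdlan+FK506), with 14872 to 15799 peaks. As a check of the cell type, 10 of 10 DC and antigen presentation markers had an H3K4me3 peak in each of the 3 lists. Of all protein-coding genes 51.0% to 51.4% had one. Among markers of other cells, no peak was called at 3 fibroblast genes or at Alb, while 1 of 3 T cell markers (Lck) and 2 of 3 B cell markers (Cd79a and Pax5) had a peak in each list.

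The class I promoters are shown first because H2-D1 was the member whose H3K4me3 level passed the limit for a call, as described later, and H2-K1 is its nearest relative among the members. H2-K1 and H2-D1 encode the classical heavy chains, and upstream of the RefSeq start of both lies a GGGATTCCC match, the letters of a kappaB site bound by NF-kB, followed by a GAANNGAAA match, a form of the interferon response element. Both motifs were searched on both strands after these promoters had been read. In the 30-base stretches printed here, from mm9, capitals mark the matches. The H2-K1 stretch is chr17:34137373-34137402 on the minus strand, 124 to 95 bases before the RefSeq start, and the H2-D1 stretch is chr17:35399869-35399898 on the plus strand, 170 to 141 bases before it. The mm9 annotation used elsewhere in the text starts H2-D1 further upstream, so that this stretch begins 194 bp past the outermost H2-D1 start and overlaps an exon of that record, while the H2-K1 stretch overlaps no exon.
H2-K1: GGGATTCCCcatctccacagTTTCACTTCt
H2-D1: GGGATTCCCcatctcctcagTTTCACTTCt
The stretches shared 29 of 30 bases, with the substitution A17T counted from the first base and with H2-K1 first. Among 21262 protein-coding promoters of 250 bases, 0.353% held GGGATTCCC and 5.91% held GAANNGAAA, and H2-K1 and H2-D1 were the 2 of 7 members with a RefSeq promoter that held each.

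B2m encodes the light chain shared by all class I molecules. Its 200 bases before the annotated start, chr2:121973222-121973421 on the plus strand, held GAAANNGAA, the other form of the interferon response element searched here, which is in capitals.
B2m: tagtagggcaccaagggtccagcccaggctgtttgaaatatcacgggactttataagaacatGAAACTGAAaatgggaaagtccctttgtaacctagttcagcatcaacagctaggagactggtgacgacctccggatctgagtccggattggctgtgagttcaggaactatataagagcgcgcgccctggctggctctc
B2m was the 1 of 7 members with this match, which 6.83% of promoters held. CCAAT, the letters of a Y box, was found in 6 of the 7 (B2m, H2-D1, H2-K1, Psmb9, Tap1 and Tapbp) and in 35.4% of promoters. GGAAAA, the NFAT core, was found at Psmb8, Psmb9 and Tap1 and in 19.8% of promoters. TTCNNNGAA, a STAT site, was found at Psmb8 and in 6.58% of promoters. TGACTCA, an AP-1 site, was found at none of the 7 and in 4.06% of promoters. The promoters of Tap1 and Psmb9 overlap by 225 bases and share 1 GGAAAA and 1 CCAAT, each counted here for both genes. Tap2 and Nlrc5 had no entry among these promoters.

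In every condition the mark was already present at the pathway. A peak that overlapped the gene or lay within 1 kb of a start was called at 8 of 9 members in NT, in curdlan and in curdlan+FK506, and at 51.4%, 51.2% and 51.0% of protein-coding genes. Nlrc5 was the member without a peak. The 8 genes held 9 distinct peaks in each list. Tap1 and Psmb9, which are transcribed away from each other, shared the peak over their starts, and the peak at the Psmb8 start reached into the 3′ end of Tap1, so that values of these 3 genes rest in part on the same tags. Tapbp held 3 peaks. In NT and curdlan the first covered the outermost annotated Tapbp start and a start of Zbtb22, and in curdlan+FK506 it covered neither. The third lay at the start of Rgl2.

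Levels are given as RPM, the tags in the peaks of a gene per 1000000 ChIP tags, and, for comparison between genes, as RPKM, which is RPM per kb of peak and is called the density. Intervals are exact 95% intervals and cover counting error only. B2m (chr2:121973422-121978819, plus strand) had 102.9 RPM in NT, 106.2 in curdlan and 101.8 in curdlan+FK506. Its peak covered the start and was 4651 bp long in NT, 4636 bp in curdlan and 5066 bp in curdlan+FK506. Its density in NT was 22.1 RPKM, at percentile 92.8 of protein-coding genes with a peak.

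The heavy chain genes had the lowest density of the members. H2-K1 (chr17:34132962-34137278, minus strand) had 18.7 RPM in NT, 23.6 in curdlan and 23.8 in curdlan+FK506, from 312, 503 and 464 tags. H2-D1 (chr17:35399675-35404444, plus strand) had 23.2, 32.3 and 34.0 RPM, from 386, 688 and 661 tags. In NT the density of H2-K1 was 6.86 RPKM (interval 6.12 to 7.67) and that of H2-D1 was 7.01 (6.33 to 7.74). These lay at percentiles 12.7 and 13.2 of all genes with a peak and did not differ beyond counting error.

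The genes that cut, carry and load peptides stood at the other end of the range. Psmb9 (chr17:34318932-34324709, minus strand) and Psmb8 (chr17:34334666-34338399, plus strand) encode catalytic subunits of the immunoproteasome. In NT the density of Psmb9 was 28.3 RPKM, at percentile 99.0, and that of Psmb8 was 22.7, at percentile 93.9. Tap1 (chr17:34324498-34334170, plus strand) and Tap2 (chr17:34340472-34353266, plus strand) encode the chains of the TAP transporter. Their densities in NT were 25.8 and 19.9 RPKM, at percentiles 97.8 and 85.4. Tapbp (chr17:34052844-34066235, plus strand), which encodes tapasin, had a density of 21.0 RPKM, at percentile 89.5, over its 3 peaks. The pooled value of Tapbp includes the first peak, over its outermost start and that of Zbtb22, at 5.20 RPKM, and the peak at Rgl2. Its second peak, over the RefSeq Tapbp start, was at 25.5. The value of Tap1 pools the same peaks that were counted for Psmb9 and Psmb8 and so has to lie between them. With Tap1 left out, the order in NT was Psmb9, Psmb8, B2m, Tapbp, Tap2, H2-D1 and H2-K1. By its second peak alone Tapbp would stand between Psmb9 and Psmb8. The intervals of the neighbours overlapped from Psmb8 to Tap2 and for the heavy chains, but not between Psmb9 and Psmb8 or Tap2 and H2-D1.

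**Figure D1:**
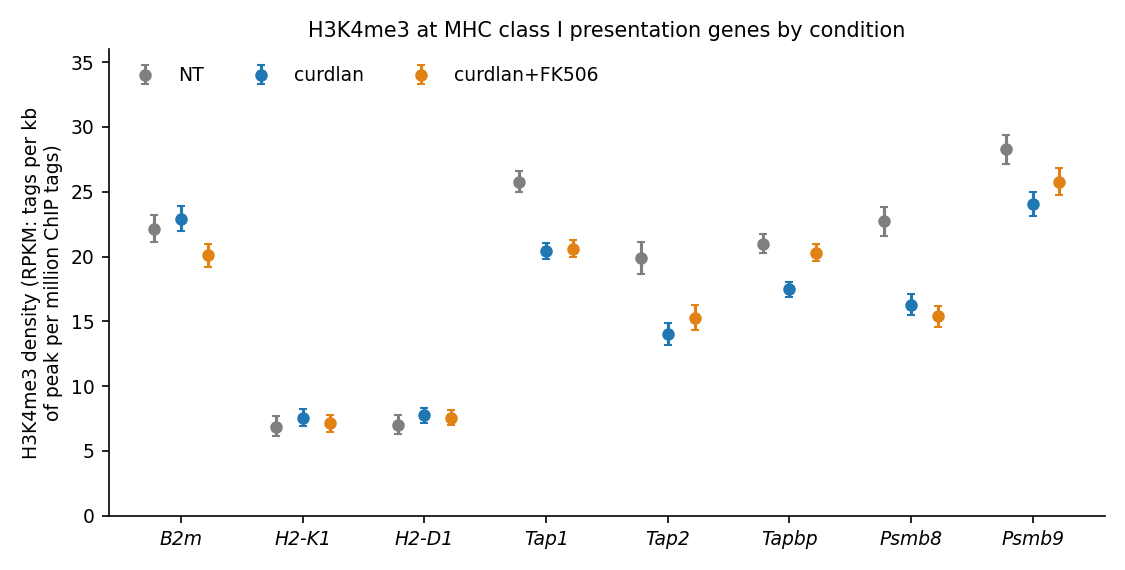
H3K4me3 density (RPKM, tags per kb of peak per 1000000 ChIP tags) of the 8 members with a peak, in NT (grey), curdlan (blue) and curdlan+FK506 (orange). Points are single libraries and bars are exact 95% counting intervals. H2-K1 and H2-D1 lie between 6.86 and 7.74 in all 3 libraries, below every value of the other 6 genes.

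H2-K1 and H2-D1 belong to a family with near copies in the genome. Of all 50-base windows in the H2-K1 peaks, 80.8% occurred at 1 place in mm9, and 86.1% of those in the H2-D1 peaks. For the other 6 members with a peak this share was 95.6% to 100%. How much reads with several places moved the levels of H2-K1 and H2-D1 was not tested.

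Between NT and curdlan 1 member, H2-D1, passed the limit for a call. The change of a gene is the log2 ratio of its RPM, minus the median over all protein-coding genes with a peak in both lists (11256 genes). That median was −0.13 before centring. A gene was called when it differed by 1.5-fold or more after centring. H2-D1 was called higher in curdlan, at 0.61 on the centred log2 scale (interval 0.43 to 0.80), a 1.53-fold difference. Thus 1 of 8 members was called higher and 0 of 8 lower, where 3.72% of all genes were called higher and 1.78% lower. Centring moved the balance over all genes, with 419 called higher and 200 lower after it and 291 and 420 without it.

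H2-K1 was next to H2-D1, with a centred log2 change of 0.47 (0.26 to 0.68), and lay below the limit for a call. B2m followed at 0.18 (0.09 to 0.27). Tapbp was at −0.03 (−0.10 to 0.03), an interval that included 0. Psmb9 was at −0.12, Tap1 at −0.17, Tap2 at −0.23 and Psmb8 at −0.25, and the intervals of these 4 genes lay wholly below 0. The median of the 8 members was −0.08, with 3 above and 5 below the median of all genes. Tap1 pools the peaks of Psmb9 and Psmb8, so these counts and the median use the same tags more than once. The middle 50% of all genes spanned −0.15 to 0.16, so that H2-D1 at percentile 96.6 and H2-K1 at percentile 94.5 lay outside it, as did B2m, Tap1, Tap2 and Psmb8.

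The heavy chain peaks were also wider with curdlan. H2-D1 measured 3306 bp in NT and 4176 bp in curdlan, a gain of 26.3%, and H2-K1 measured 2729 and 3130 bp, a gain of 14.7%. The median gene gained 2.97% and the upper quartile was 10.9%. Among the other heavy chain genes described later, the change in length ran from −11.5% (H2-T22) to 83.0% (H2-M3), both named after their values were seen. The curdlan library was also the deeper of the pair, and the part of depth in these lengths was not tested. On RPKM, centred in the same way, the change of H2-D1 was 0.32 and that of H2-K1 0.32, and H2-D1 was then not called. Without centring H2-D1 was at 0.48, also below the limit. On the fold enrichment that the peak caller gives for the peak, H2-D1 was at −0.15, H2-K1 at −0.21 and B2m at −0.21, while Tap1 and Psmb9 were at 0.20 through their shared peak, so that these 5 genes had the opposite sign on that scale.

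**Figure D2:**
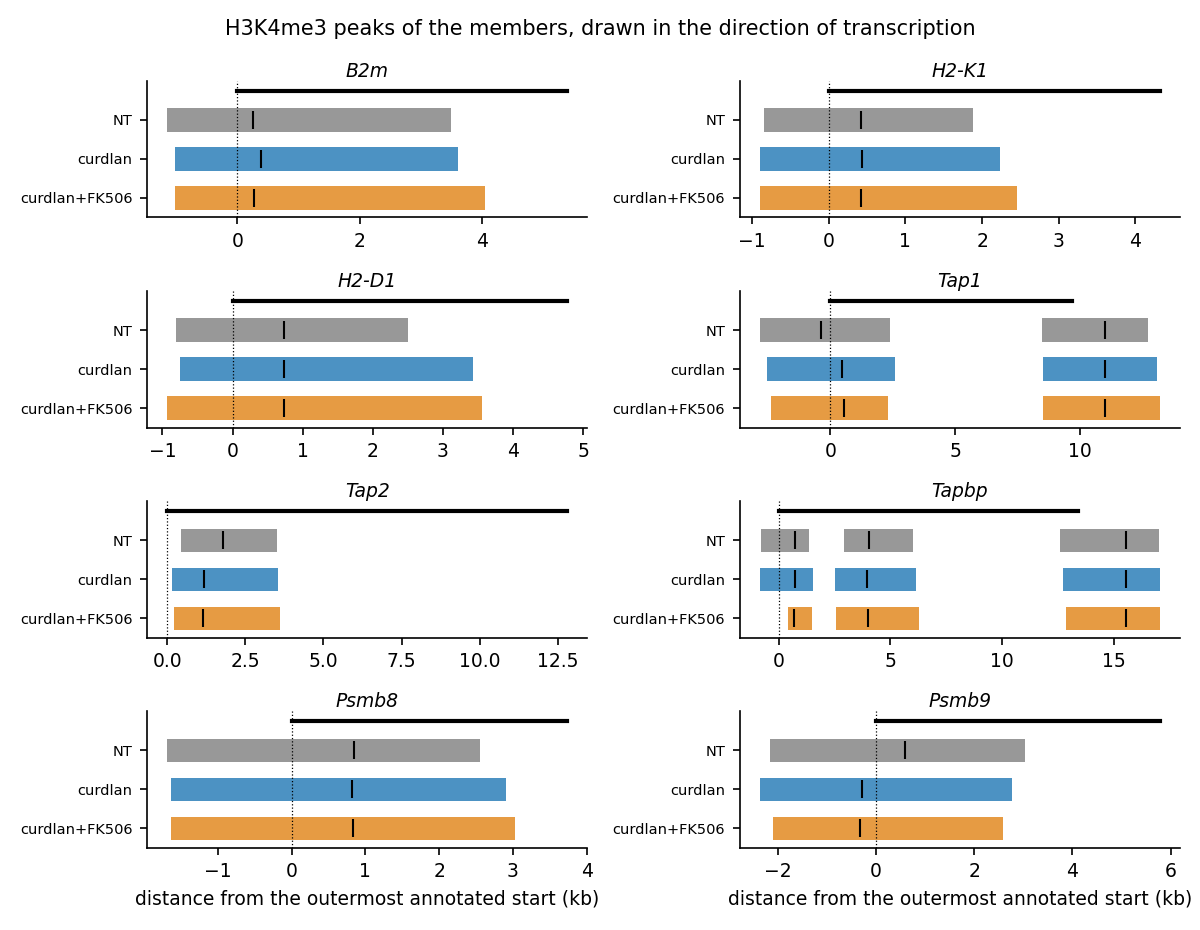
Extent of each H3K4me3 peak (bars) and its summit (black tick) in NT, curdlan and curdlan+FK506, as distance in kb from the outermost annotated start, drawn in the direction of transcription; each panel has its own scale. The black line is the gene. The peak of H2-D1 is 3306, 4176 and 4485 bp long, and the summit of the peak shared by Tap1 and Psmb9 moves toward Tap1 with curdlan.

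The summit, the base with the highest signal in a peak, moved by 500 bp or more in 2 of the 9 peaks. In the peak shared by Tap1 and Psmb9 the summit lay at chr17:34324111 in NT, 53 bp inside Psmb9 from its nearest start. With curdlan it lay at chr17:34324985, 874 bp further on and 238 bp past the nearest Tap1 start. With curdlan+FK506 it lay at chr17:34325035, 288 bp past the nearest Tap1 start. From the outermost Tap1 start these summits lay at 0.487 and 0.537 kb. In the Tap2 peak the summit moved by −612 bp, from 34342249, where the nearest start belonged to Gm20496, to 34341637, which was 125 bp past a Tap2 start. Over 13535 peaks matched 1 to 1 between NT and curdlan, the median move was 27 bp and 6.41% moved by 500 bp or more. The other members' summits moved by 1 to 127 bp.

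With FK506 the members lay close to their curdlan values. Between curdlan+FK506 and curdlan, 0 of 8 members were called higher and 0 lower, where 0.561% and 1.35% of all 11235 genes were called. Tap2, at 0.18 (0.05 to 0.30), had the largest centred log2 change and was the 1 member whose interval excluded 0. H2-D1 was at 0.12 (−0.04 to 0.27), H2-K1 at 0.06 (−0.13 to 0.24), Tapbp at 0.06 and B2m at −0.02, while Psmb9, Tap1 and Psmb8 lay between 0.00 and 0.01. The median of the 8 members was 0.04. The H2-D1 peak was 4485 bp long with FK506 against 4176 bp without it, and the H2-K1 peak 3350 bp against 3130 bp.

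Between curdlan+FK506 and NT, H2-D1 was again the member called, at 0.73 (0.55 to 0.92), or 1.66-fold higher. This comparison uses the NT library of the first and the curdlan+FK506 library of the second and is not independent of them. Thus 1 of 8 members was called higher and 0 lower, where 2.99% and 1.76% of 11243 genes were called, or 336 and 198 genes in place of 190 and 528 without centring. H2-K1 was at 0.53 (0.32 to 0.74), B2m at 0.17, Tapbp at 0.03, Tap2 at −0.05, Psmb9 at −0.10, Tap1 at −0.16 and Psmb8 at −0.25. The peak of H2-D1 was 35.7% longer than in NT and that of H2-K1 22.8% longer. The median gene was 1.09% longer and the upper quartile was 8.14%.

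**Figure D3:**
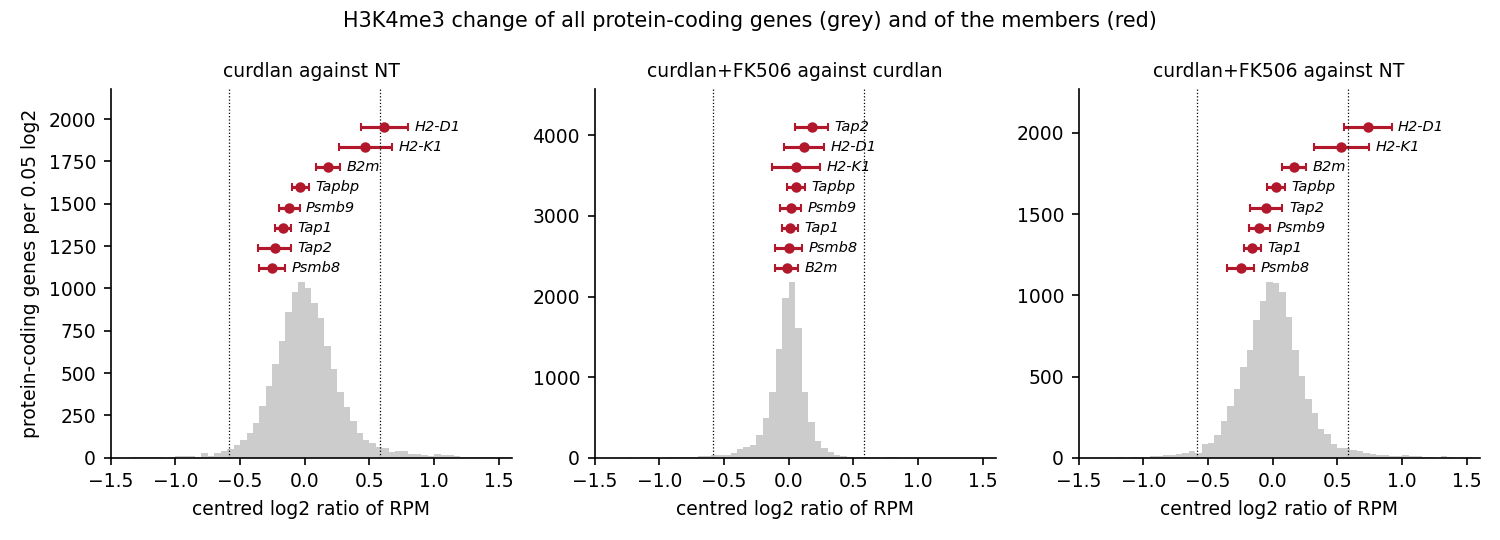
Centred log2 ratio of RPM for all protein-coding genes with a peak in both lists (grey bars, number of genes per bin) and for 8 members (red points with exact 95% counting intervals), in 3 comparisons that share libraries. Dotted lines mark a 1.5-fold difference; H2-D1 lies past it at 0.61 in curdlan against NT and at 0.73 in curdlan+FK506 against NT.

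Nlrc5 needs its own account, since its start is uncertain in the annotation used. The mm9 annotation holds it as a noncoding record of 54510 bp (chr8:96996663-97051172, plus strand), while RefSeq, on a later build, holds a protein-coding gene of 92938 bp whose record overlaps that of 9330175E14Rik. The peak nearest upstream of the mm9 record ended 37.0 kb before it in NT, 36.7 kb in curdlan and 36.6 kb in curdlan+FK506, and covered the start of 9330175E14Rik, a noncoding gene on the other strand. It held 48.6 RPM in NT (809 tags), 48.1 in curdlan (1024) and 42.4 in curdlan+FK506 (825). Its centred log2 change was 0.12 (−0.01 to 0.25) between curdlan and NT and −0.14 (−0.27 to −0.0046) between curdlan+FK506 and curdlan. Whether this peak belongs to Nlrc5 was not tested.

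NFATc2 was not found at the start of any member. No summit of the NFATc2 list lay within 10 kb of a start of the 9 members, where 16.3% of protein-coding genes had one. Within 100 kb, 6 of 9 members had a summit and 55.3% of protein-coding genes did. Tap2 had 11 summits within 100 kb, Psmb8 10, Tap1 8, Psmb9 8, H2-D1 5 and Nlrc5 1. B2m, H2-K1 and Tapbp had none, and their nearest summits lay 118, 121 and 155 kb away. A median gene had 1 summit in this window, and 1.14% of genes had 8 or more.

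The high counts of the TAP and immunoproteasome genes rested largely on the same summits, each counted for every gene within reach. The 6 members had 17 distinct summits between them, of which 10 lay within 100 kb of 2 or more members and 11 lay around the Tap and Psmb genes, which stand inside the MHC class II region. For none of the 17 was a member the gene with the nearest start. For 7 of the 11 the nearest start was that of a class II gene (H2-DMb2, H2-DMb1, H2-Ob, H2-Ab1 or H2-Aa), which encode class II chains and chains that edit their peptides. The 17 summits had a median of 131 tags, against 63 over all 9438. Of the 17, 9 lay in an H3K4me3 peak of NT, 8 of curdlan and 9 of curdlan+FK506. GGAAAA occurred within 100 bp of 8 of the 17 summits and of 45.6% of all summits.

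**Figure D4:**
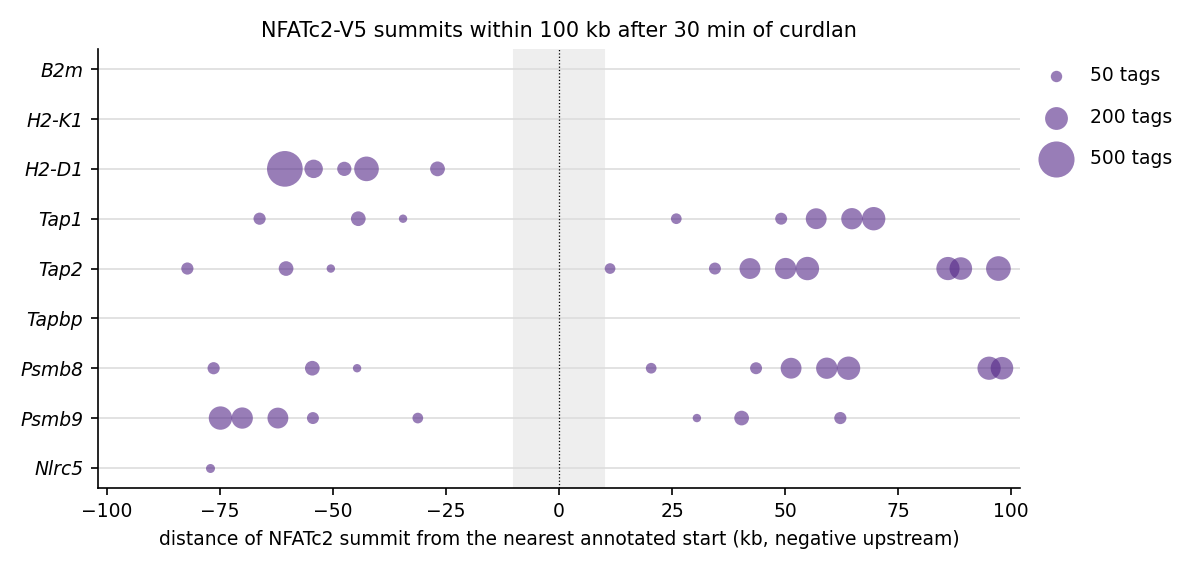
NFATc2-V5 summits within 100 kb of each member, by distance in kb from the nearest annotated start (negative is upstream), with the area of a circle in proportion to its tags. The grey band is 10 kb either side of the start and holds 0 summits; the same summits recur in the rows of Tap1, Tap2, Psmb8 and Psmb9.

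The sequences at 4 of these summits, all outside annotated exons, are shown because they include the summit nearest to any member, the strongest of the 17 and 3 that hold GGAAAA. Each is 101 bases of the plus strand of mm9 centred on the summit, with GGAAAA on either strand in capitals. The first lay 11288 bp downstream of a Tap2 start (chr17:34355889-34355989) and held 44 tags and no GGAAAA. The second lay 42231 bp downstream of a Tap2 start, in an intron of H2-Ob (chr17:34386832-34386932), and held 167 tags. The third lay 54273 bp upstream of H2-D1 (chr17:35345352-35345452) and held 131 tags. The fourth lay 60633 bp upstream of H2-D1 and 90 bp upstream of the start of Tnf (chr17:35338992-35339092), the gene of a major inflammatory cytokine, and held 489 tags, the most of the 17.
Tap2 nearest: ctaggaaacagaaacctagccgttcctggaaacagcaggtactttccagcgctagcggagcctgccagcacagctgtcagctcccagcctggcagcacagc
Tap2, H2-Ob intron: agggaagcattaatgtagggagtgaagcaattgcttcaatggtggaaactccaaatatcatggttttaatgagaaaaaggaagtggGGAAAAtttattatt
H2-D1, Lta side: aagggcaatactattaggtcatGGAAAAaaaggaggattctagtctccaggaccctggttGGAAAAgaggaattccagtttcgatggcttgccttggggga
H2-D1, Tnf start: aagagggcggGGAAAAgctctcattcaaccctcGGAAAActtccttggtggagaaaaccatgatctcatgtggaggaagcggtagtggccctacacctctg
Around H2-D1, the member with the called change, the nearest summit lay 26871 bp upstream, 19 bp before the start of Atp6v1g2, and held 84 tags. H2-K1, with the next largest change, had no summit within 100 kb. The single summit of Nlrc5 lay 77149 bp upstream, 2083 bp past the start of Herpud1, and held 31 tags.

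The rest of the pathway was read from 33 further genes in 5 lists. A peak was called at 30 of them in NT and at 32 in curdlan and in curdlan+FK506. Among protein-coding genes the shares were 51.4%, 51.2% and 51.0%. In curdlan against NT 0 of 30 were called in either direction after centring, beside the 3.72% and 1.78% of all genes. The median centred log2 change of the 30 was 0.04. Without centring Ciita, described below, would be called lower, at −0.68. In curdlan+FK506 against curdlan 0 of 32 were called, beside 0.561% of all genes higher and 1.35% lower. In curdlan+FK506 against NT 1 of 30 was called, Psmb6, at 0.65 (0.48 to 0.83), beside 2.99% of all genes higher and 1.76% lower. Without centring Psmb6 was at 0.47 there, below the limit. In curdlan against NT Psmb6 was at 0.53 (0.36 to 0.71). In that comparison Psmb7 was at 0.50 (0.33 to 0.67), Psmb5 at 0.13 (−0.03 to 0.29) and H2-K1 at 0.47. Psmb5, Psmb6 and Psmb7 were named after their values were seen. Psmb6 encodes the constitutive subunit that Psmb9 replaces in the immunoproteasome. It had 26.3 RPM in NT, 34.8 in curdlan and 36.6 in curdlan+FK506. Its density, in the same order, was 13.2, 14.1 and 10.9 RPKM, and its peak was 68.9% longer in curdlan+FK506 than in NT. The RPM of Psmb9 was 147, 123 and 121, with a centred log2 change of −0.10 between curdlan+FK506 and NT.

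The 10 further heavy chain genes gave a mixed picture. Of 7 compared between curdlan and NT, 6 lay above the median of all genes. The list median was 0.17, with a range from −0.13 to 0.31. Between curdlan+FK506 and curdlan 9 were compared, of which 3 lay above and 6 below the median, with a list median of −0.04. The range ran from −0.45 (interval −0.70 to −0.21) at H2-T24, named after its value was seen, to 0.51 (0.06 to 0.96) at H2-Q6. H2-Q6 and H2-Q7, named after their values were seen, had a peak with curdlan and with curdlan+FK506 and none in NT. These were small, with 76 and 86 tags in curdlan, and 56.7% and 48.7% of their 50-base windows were at 1 place in mm9, so that tags of H2-Q6 and H2-Q7 may not be separable. H2-Q10 had no peak in any list.

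Of the 11 regulators, which include the RFX and NF-Y subunits that bind class I and class II promoters, 10 lay below the median of all genes in curdlan against NT, and the list median was −0.15. The lowest was Ciita, the class II transactivator and a relative of Nlrc5, at −0.55 (−0.61 to −0.48), just short of a call. Without centring Ciita was at −0.68, past the limit. It had 265 RPM in NT, 166 in curdlan and 193 in curdlan+FK506, over 3, 3 and 2 peaks.

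An NFATc2 summit lay within 10 kb of a start for 6 of the 33 genes, beside 0 of 9 members and 16.3% of protein-coding genes. The strongest, with 175 tags, lay 290 bp upstream of a Ciita start. A summit of 80 tags lay 7035 bp upstream of Irf1, which encodes an interferon regulatory factor that acts on class I genes. Nfyc, an NF-Y subunit gene, had a summit of 63 tags 1612 bp downstream of a start. Rfxank, an RFX subunit gene, had one of 38 tags 9207 bp upstream. Psme1, which encodes a subunit of the proteasome activator, had a summit of 24 tags 370 bp downstream of a start, and Psme2, its partner, was 9659 bp from that summit. The centred log2 change of these other genes between curdlan and NT was −0.04 for Irf1, −0.21 for Nfyc, −0.17 for Rfxank, 0.13 for Psme1 and 0.22 for Psme2.

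**Figure D5:**
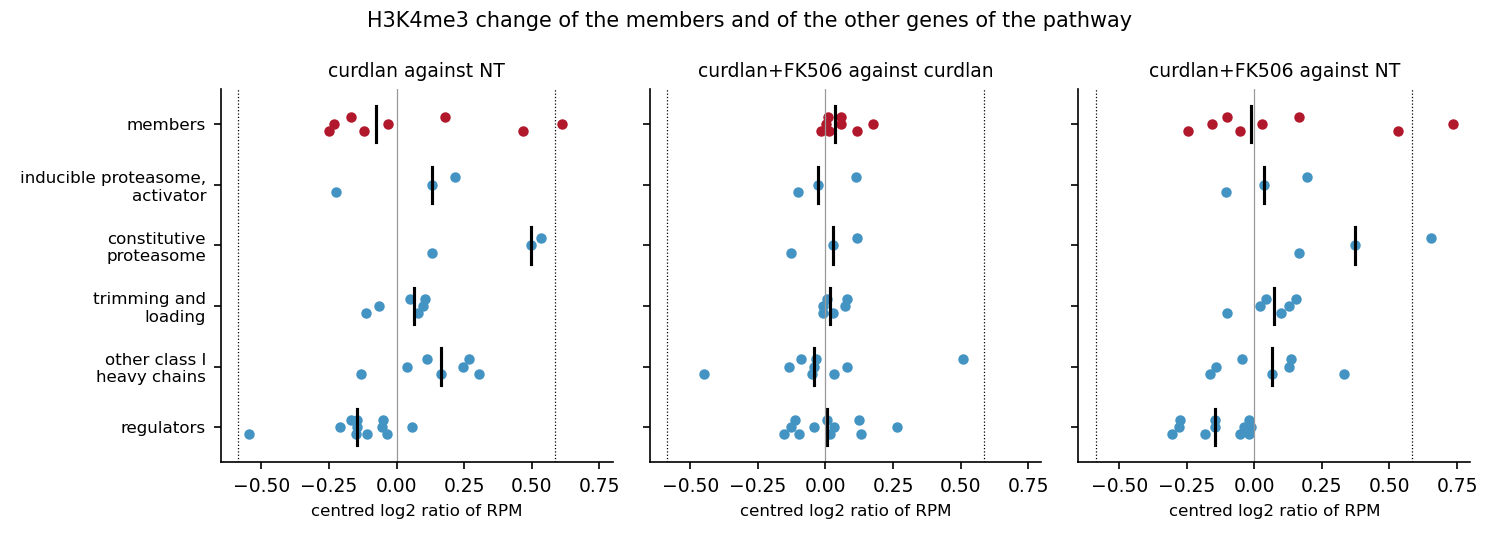
Centred log2 ratio of RPM for the members (red) and for the other genes of the pathway by list (blue) in 3 comparisons; black bars are list medians, dotted lines a 1.5-fold difference. In curdlan against NT the members spread from −0.25 to 0.61 around a median of −0.08, and the regulators have a median of −0.15.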

How the data were processed

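ChIP-seq of NFATc2-V5 and of H3K4me3 was used, with 1 ChIP and 1 input library per condition, grouped by the sample labels. Reads were aligned by the authors to mm9 (bowtie 1, default settings), and the authors called peaks in each library against its input with MACS, version 1.4.2 per the file headers, at p = 1e-05. The deposited lists give for each peak the count of tags, not normalized, the p-value as −log10 p multiplied by 10, the fold enrichment, which is a ratio to local background, and an FDR in percent. The deposited headers list as many tags after the limit on duplicates as before it.

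Genes and starts came from the Ensembl release 65 annotation of mm9, with records of 1 symbol merged where they overlapped. A peak was given to a gene when it overlapped the gene or lay within 1000 bp of any start. Tags were divided by the header total of ChIP tags and summed per gene. Changes were centred on the median over protein-coding genes, and 1.5-fold counted as a call. Tag ratios carry exact (Clopper-Pearson) and densities exact Poisson 95% intervals. NFATc2 summits were counted within 100 kb of any start. RefSeq promoters were placed in mm9 by their sequence. The 50-base windows were counted exactly on both strands. All 9 members are named. Of the 33 further genes, the plan was to name those with a summit within 10 kb. It also covered those past 1.5-fold in curdlan against NT or in curdlan+FK506 against curdlan. Psmb5, Psmb6, Psmb7, H2-Q6, H2-Q7, H2-Q10, H2-M3, H2-T22 and H2-T24 are named outside that plan. The members and lists were chosen with earlier results of these data known. Alternatives covered the scale, peak and p-value limits, windows and background. Functions were tested on simulated data. The tools were pysam 0.24.0, scipy 1.17.1, pandas 2.3.3 and numpy 2.4.6 under Python 3.11.15.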

Additional observations from a re-analysis of the deposited data

How the results depend on the processing

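With 1 library per condition the limits are counting error and the choice of scale. The number of members called higher, 1 in curdlan against NT and 1 in curdlan+FK506 against NT, was 0 in both on RPKM, without centring and with a 2-fold limit. On the fold enrichment of the peak with most tags 0 members were called higher and 2 lower in curdlan against NT. In curdlan+FK506 against curdlan 3 were higher, and in curdlan+FK506 against NT 3 were higher and 4 lower. The 3 higher were H2-K1, Tap1 and Psmb9 each time, and Tap1 and Psmb9 had the same value through their shared peak. On that scale H2-D1 in curdlan against NT was at −0.15, the 1 called value that changed sign. Tags after the limit on duplicates, tags inside peaks and the 2-fold limit cannot move a centred value. Under the other 6 settings 98 of 144 recomputed member values stayed within the counting interval around the reported value, taken as symmetric. Of the 144, 22 changed sign, 11 of them on fold enrichment, 5 without centring and 4 on RPKM. Fold enrichment called more of all genes, with 1629 higher and 1698 lower of 11256 in curdlan against NT, where the reported scale gave 419 and 200. In curdlan+FK506 against curdlan it called 1590 higher and 1645 lower of 11235. In curdlan+FK506 against NT it called 1569 higher and 1590 lower of 11243. The cause was not tested. Of all genes called in that comparison 67.7% were higher, against 40.9% without centring and 49.0% on fold enrichment. Of those called in curdlan+FK506 against curdlan 29.3% were higher, against 46.4% on RPKM and 49.2% on fold enrichment, and of those called in curdlan+FK506 against NT 62.9% were higher, against 26.5% without centring and 49.7% on fold enrichment.

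The count of 8 members with an H3K4me3 peak held when peaks with an FDR above 5% or a p-value above 1e-50 were left out and when peaks had to lie within 1 kb of a start, and was 9 when Nlrc5 was given the peak at 9330175E14Rik, an alternative chosen after the data were seen, as were the motifs GGGATTCCC and GAANNGAAA. The 17 distinct NFATc2 summits became 2 within 30 kb, 0 within 10 kb and 11 at a p-value of 1e-10 or less, and the 6 members with a summit became 0 within 10 kb. No paired analysis was possible because each condition had 1 ChIP library.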
